A study of Mus musculus with 42 samples.

Results

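The olfactory receptor genes of mouse chromosome 11 were followed in phosphorylated ribosome pulldowns of the main olfactory epithelium. Members were the genes with a symbol of Olfr plus a number in GENCODE M21 that lie on chromosome 11 of GRCm38. The count table holds 94 of them, out of 1169 olfactory receptors on all chromosomes and 44674 genes in all, and 10 further annotated members were not analysed here. Of the 94 genes, 20 carry the suffix -ps, which marks a presumed pseudogene. The choice used names and positions, not measured values.

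Pools of 4 main olfactory epithelia came from adult male C57BL/6NCrl mice, a wild-type inbred strain, after 1 h with no odour or with the odour of a diet. The odours were NCD, the normal chow diet (6 pools), bacon (5 pools; a bacon-flavoured chow in the study's methods), and HFD lard, a lard-based high-fat diet (5 pools), against 5 pools without odour. From each pool (21 in all) came a pulldown library, made with an antibody to phosphorylated ribosomal protein S6, and an input library of the whole homogenate. The comparisons ask which receptors are over- or under-represented on phosphorylated ribosomes at rest, and how that changes with each odour.

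Each mature olfactory sensory neuron transcribes a single receptor gene from a single allele, so a receptor's mRNA marks the neurons that chose it. Odour binding opens a cyclic-nucleotide-gated channel through a G protein and adenylyl cyclase, and the active neuron phosphorylates S6, so that the mRNA of its receptor is captured more by the antibody. In bulk tissue, fewer neurons of a receptor and less receptor mRNA per neuron cannot be told apart.

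The members fall into 7 groups along the chromosome, each separated from the next by over 1 Mb. The first, Olfr56 to Olfr1381, holds 15 genes at chr11:48978889-49556127, and the second, Olfr1379-ps1 to Olfr1374-ps1, holds 8 at chr11:50958948-51143467. Olfr1373 and Olfr1371 form the third at chr11:52144593-52213987. The fourth, Olfr30 to Olfr225, holds 22 at chr11:58454105-59615060, and the fifth, Olfr20 to Olfr412, holds 43 at chr11:73350783-74366218. The sixth is Olfr462, Olfr463 and Olfr464 at chr11:87884979-87920967, and Olfr1397-ps1 lies alone at chr11:108687074-108688035. Linking proteins of at least 60% identity placed the 77 members with an annotated coding sequence into 24 subfamilies, 13 of them with more than 1 member. This grouping was made after values had been seen and is used for description only.

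The results below turn on 3 subfamilies. In the first and second, some tested members were called in the pulldown without odour and others were not. In the third, all tested members were lower. For each subfamily, 60 coding bases are shown from a conserved part of the family, the inner end of the third transmembrane helix, taken from GENCODE M21 transcripts on GRCm38. Olfr1384 (coding stretch at chr11:49513988-49514047, plus strand) stands first because its ratio changed with odour, and the other 8 are its neighbours in the first group that were enriched without odour. Capitals mark bases that differ from Olfr1384.
Olfr1384: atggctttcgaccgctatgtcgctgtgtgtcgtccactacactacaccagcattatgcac
Olfr1393: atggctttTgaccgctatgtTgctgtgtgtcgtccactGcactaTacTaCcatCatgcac
Olfr1392: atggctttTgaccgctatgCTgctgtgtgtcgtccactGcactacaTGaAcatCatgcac
Olfr1391: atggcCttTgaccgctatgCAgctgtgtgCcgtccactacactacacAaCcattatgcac
Olfr1388: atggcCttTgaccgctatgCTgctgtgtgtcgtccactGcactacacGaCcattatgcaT
Olfr1387: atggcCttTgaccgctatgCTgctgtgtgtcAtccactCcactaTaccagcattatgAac
Olfr1385: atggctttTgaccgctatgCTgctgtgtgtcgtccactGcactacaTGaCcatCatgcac
Olfr1382: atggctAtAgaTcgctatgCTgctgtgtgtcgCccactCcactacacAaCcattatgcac
Olfr1381: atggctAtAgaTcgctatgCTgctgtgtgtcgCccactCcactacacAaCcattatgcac
Olfr1382 and Olfr1381 were identical over this stretch, and the 8 neighbours differed from Olfr1384 at 7 to 9 of the 60 bases. Over the whole coding sequence, Olfr1384 was 74.1 to 75.9% identical to the 9 other tested members of its subfamily, which were 79.0 to 96.8% identical among themselves.

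Olfr464 (stretch at chr11:87914494-87914553, minus strand), the second receptor that changed with odour, is shown with both other genes of its group. Capitals mark bases that differ from Olfr464.
Olfr464: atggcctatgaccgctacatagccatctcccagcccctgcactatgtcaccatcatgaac
Olfr463: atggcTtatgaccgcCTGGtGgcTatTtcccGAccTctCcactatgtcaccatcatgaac
Olfr462: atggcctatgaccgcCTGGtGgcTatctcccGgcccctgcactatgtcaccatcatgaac
Its coding sequence was 84.0% identical to that of Olfr463 and 82.9% identical to that of Olfr462.

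The third set is the subfamily depleted from the pulldown without odour. Olfr325 (stretch at chr11:58581209-58581268, plus strand) was its most depleted member, and capitals mark bases that differ from it.
Olfr325: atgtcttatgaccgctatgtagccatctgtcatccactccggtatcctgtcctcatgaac
Olfr330: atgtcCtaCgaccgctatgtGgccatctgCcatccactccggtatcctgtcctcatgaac
Olfr329-ps: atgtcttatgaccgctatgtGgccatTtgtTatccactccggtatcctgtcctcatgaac
Olfr328: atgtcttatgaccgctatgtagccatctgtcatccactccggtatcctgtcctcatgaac
Olfr224: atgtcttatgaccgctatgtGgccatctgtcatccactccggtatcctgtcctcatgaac
Olfr328 did not differ from Olfr325 in this stretch, and the coding sequences of the other 4 were 89.3 to 92.6% identical to Olfr325.

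The libraries held 24839555 to 36781553 counts, of which the 94 members took 0.0153 to 0.0331%. After the filter on low counts 68 members were tested. The other 26, of which 11 carry the suffix -ps, had between 0 and 236 counts summed over the 42 libraries, and 2 of them had 0 counts in all. Sequence shared between copies limits single members: a median of 14.1% of a member's 31-base words occurred in another gene, and 4 members (Olfr20, Olfr331, Olfr1371 and Olfr1373) shared most of theirs, so reads of close copies may have been split between them. Ribosomal RNA took 11.6 to 23.1% of the counts in the pulldowns without odour and 8.12 to 17.5% in those with odour. In the inputs it took 19.2 to 28.1% without odour and 9.38 to 18.9% with odour, ranges that did not overlap. In bacon replicate 1 the log2 pulldown/input ratios of all genes had an SD of 0.60, against 0.74 to 1.08 in the other 20 pools, and 16 of the 18 members enriched at rest had their lowest bacon ratio there.

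The level of each receptor was first compared in the 5 inputs without odour, as CPM (counts scaled to a common library size) per kb of exon. The 68 tested members ranged from 0.0232 to 7.01 CPM per kb, with a median of 0.421. Olfr330 was highest at 7.01 ± 1.54 CPM per kb (SD, n = 5), followed by Olfr325 at 5.56 ± 1.38 and Olfr224 at 4.77 ± 0.564. The ranges of mean ± SD overlapped for Olfr330 and Olfr325 and for Olfr325 and Olfr224, but not for Olfr330 and Olfr224. All levels come from the same 5 inputs, and differences between receptors within a pool were not tested. Olfr329-ps and Olfr328 came next, with 3.91 and 3.41 CPM per kb, so that the 5 highest members were the tested members of the third set above. The lowest tested levels were those of Olfr322 (0.0232 ± 0.0124 CPM per kb), Olfr410 (0.0396 ± 0.0167) and Olfr1378 (0.0549 ± 0.0313), where the ranges of mean ± SD overlapped between neighbours in the order. Olfr1384, at 1.62 ± 0.293 CPM per kb, and Olfr464, at 2.18 ± 0.302, were in the upper part of the order.

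**Figure D1:**
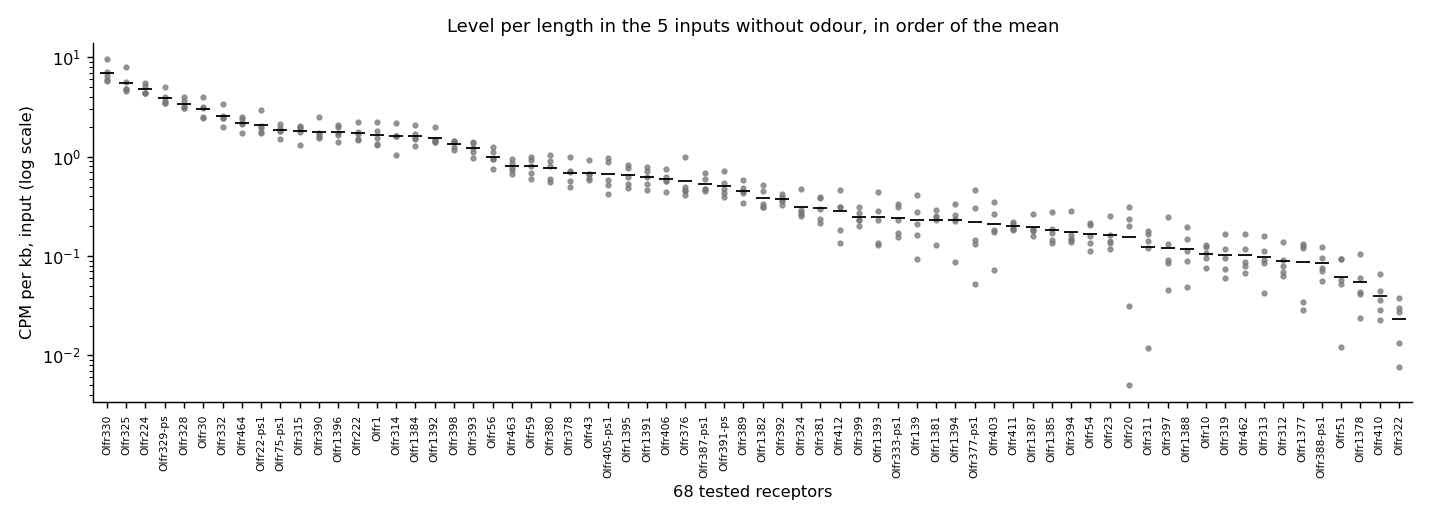
Level per length of the 68 tested receptors in the 5 inputs without odour, in CPM per kb of exon on a log axis; points are pools, dashes are means, and values under 0.005 are drawn at 0.005. The 5 highest receptors, Olfr330 to Olfr328, had means of 3.41 to 7.01 CPM per kb.

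Without odour, chromosome 11 receptors were spread on both sides of the input. Of the 68 tested, 18 were higher in the pulldown and 7 lower at an adjusted p under 0.001 (edgeR's quasi-likelihood test), against 19.8% of all 21168 genes higher and 16.0% lower. Of the 839 tested receptors on other chromosomes, 91 were higher and 87 lower. The median log2 pulldown/input ratio was 0.09 over the members, -0.20 over the receptors on other chromosomes and 0.01 over all genes. The 18 enriched members lay above 0 in all 5 pools and the 7 depleted members below 0 in all 5.

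In the first group 9 of 14 tested members were higher at rest and none lower. Olfr1391 had log2 ratios of 1.64, 1.87, 1.93, 2.31 and 2.18 in the 5 pools. Its fitted ratio of 2.02 (SE 0.14, adjusted p = 2.45e-11, edgeR) was the highest of all tested members and corresponds to 4.05-fold more in the pulldown. Olfr1392 had ratios of 1.44, 1.45, 1.84, 2.04 and 1.18, and a fitted ratio of 1.60 (SE 0.11, adjusted p = 2.21e-11). For Olfr1382 the pools gave 1.76, 1.40, 1.22, 2.12 and 1.37, and the fit 1.60 (SE 0.17, adjusted p = 1.38e-08). The other enriched relatives of this subfamily were Olfr1388 (1.55), Olfr1385 (1.53), Olfr1393 (1.52), Olfr1381 (1.52) and Olfr1387 (1.16). The other tested members of the subfamily were not called: Olfr10 at 0.06 (SE 0.56), with a median of 6.69 counts in an input, and Olfr1384 at -0.09 (SE 0.12, adjusted p = 0.535). Among the members in the table, Olfr1384 lies between Olfr1385 and Olfr1382. Olfr1392 and Olfr1393 share 28.8 and 36.3% of their 31-base words with each other, whereas Olfr1391 shares 1.76% with any gene.

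Outside the first group, the called receptors with the highest ratios were Olfr59, Olfr398 and Olfr463. Olfr398 in the fifth group had log2 ratios of 1.47, 1.31, 1.37, 1.67 and 1.12 and a fitted ratio of 1.39 (SE 0.10, adjusted p = 1.59e-11). Olfr59 had 2.04, 1.98, 1.10, 1.28 and 1.15, with a fitted ratio of 1.52 (SE 0.14, adjusted p = 1.76e-09). Its close relative Olfr406 was also called, at 0.93. In the sixth group Olfr463 (1.31) and Olfr464 (0.97) were called and Olfr462 (0.39, adjusted p = 0.305) was not. The remaining enriched members were Olfr332 (0.90), Olfr75-ps1 (0.88), Olfr56 (0.84), Olfr222 (0.71) and Olfr315 (0.63).

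Depletion centred on the third set. Olfr325 had log2 ratios of -1.22, -1.66, -1.80, -1.48 and -0.88 and a fitted ratio of -1.40 (SE 0.15, adjusted p = 9.12e-09), which is 0.379 times the input. Olfr330 had -0.92, -0.93, -1.23, -1.65 and -0.95, and a fitted ratio of -1.14 (SE 0.12, adjusted p = 9.66e-09). The fitted ratios of Olfr224 (-0.63), Olfr329-ps (-0.42) and Olfr328 (-0.41) were smaller in size but also called. The 5 receptors with the highest level per length in the input were thus all lower in the pulldown. The same inputs form the denominator of the ratio, so level and ratio are not independent measures. Part of this set's sequence is shared, from 19.0% of the 31-base words of Olfr329-ps to 39.7% of those of Olfr325, and the part of shared reads in the ratios was not tested. Olfr332, 2 positions before Olfr330 in the order of starts, was enriched, so the ratio changed sign between near neighbours of the fourth group. The 2 depleted members outside the set were Olfr314 at -0.88 (SE 0.16, adjusted p = 2.82e-05) and Olfr393 at -0.78 (SE 0.14).

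**Figure D2:**
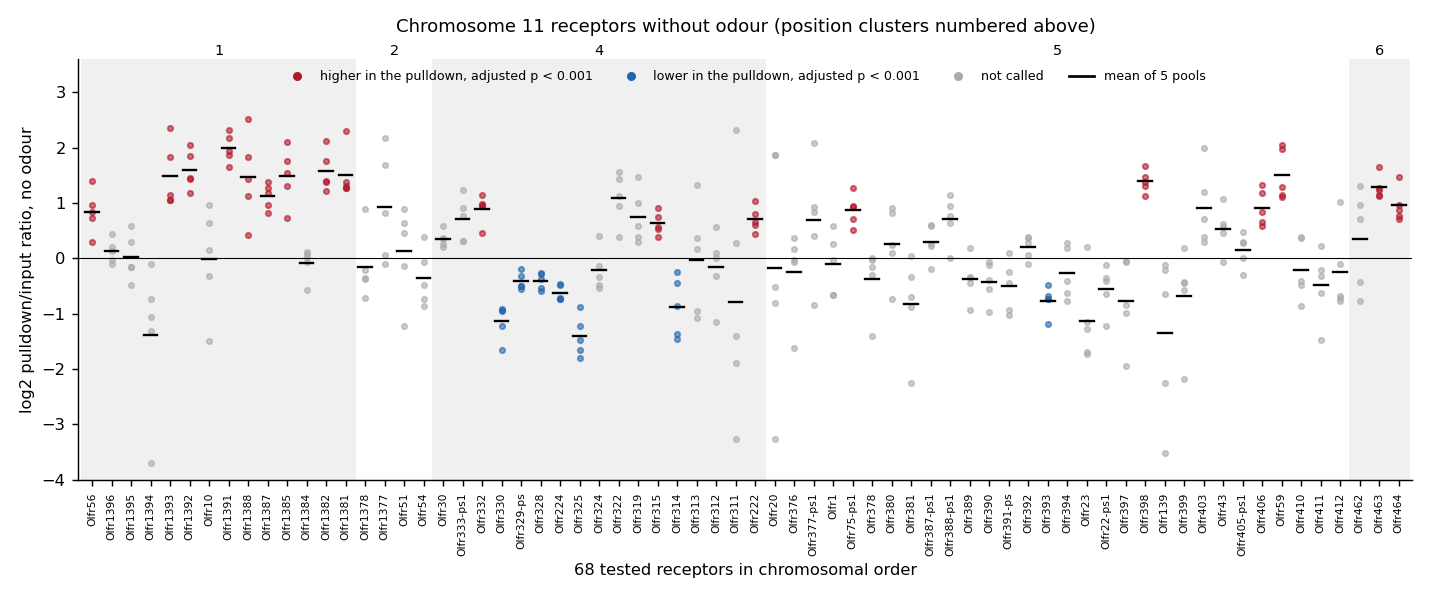
Log2 pulldown/input ratio without odour of the 68 tested receptors in chromosomal order; each point is 1 of 5 pools, black lines are means, red and blue mark receptors higher or lower in the pulldown at an adjusted p under 0.001, and bands mark the numbered position groups. Group 1 holds 9 of the 18 enriched receptors and group 4 holds 6 of the 7 depleted ones.

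Several subfamilies lay mostly on 1 side of the input. The subfamily of Olfr1393 had a median fitted log2 ratio of 1.53 over 10 tested members, with 8 called higher, and the subfamily of Olfr325 had -0.63 over 5, with 5 called lower. The subfamily of Olfr20 in the fifth group had 14 tested members, of which 12 were below 0 and 1 was called, with a median of -0.39. Olfr315 and Olfr314, 65.2% identical in protein, were called in opposite directions. Across pairs of tested members, those with at least 90% coding identity (18 pairs) differed in their log2 ratio by a median of 0.66, those with 80 to 90% (71 pairs) by 0.37, those with 70 to 80% (75 pairs) by 0.59 and those under 70% (1666 pairs) by 1.00. The pairs share members and, between close copies, reads.

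**Figure D3:**
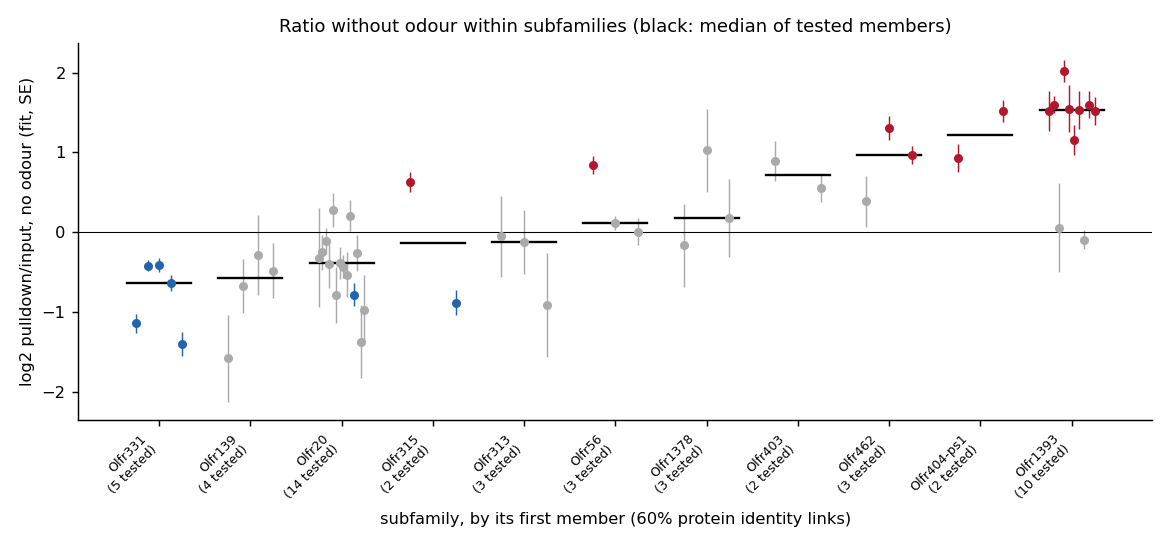
Fitted log2 pulldown/input ratio without odour, with SE, of the tested members of subfamilies with at least 2 of them; each subfamily is named by its first member in chromosomal order, lines are medians, and red and blue mark adjusted p under 0.001. The Olfr1393 subfamily lies at a median of 1.53 with Olfr1384 and Olfr10 near 0, and the subfamily of Olfr331, which holds Olfr325, at -0.63.

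NCD odour raised the ratio of 2 of the 68 tested members over no odour and lowered none (edgeR, adjusted p under 0.001), against 0.359% of all genes raised and 0.165% lowered. Bacon odour also raised 2 and lowered 0, against 2.47 and 1.32% of all genes. HFD lard odour changed 0 members, against 0.699% of all genes raised and 0.520% lowered, and at an unadjusted p under 0.05 it gave 11 members higher and 2 lower (16.2 and 2.94% of the members, against 14.4 and 15.2% of all genes). At an adjusted p under 0.001 the raised members were 2.94, 2.94 and 0% of those tested under NCD, bacon and HFD lard. Of the 839 tested receptors on other chromosomes, 15, 32 and 12 were raised (1.79, 3.81 and 1.43%) and 0 lowered. DESeq2 with the same design raised 2, 2 and 1 members under NCD, bacon and HFD lard. The median change of the log2 ratio was 0.12, 0.16 and 0.19 over the members, 0.24, 0.30 and 0.28 over receptors on other chromosomes, and at most 0.01 in size over all genes. All 3 comparisons use the same 5 pools without odour, so they are not independent of each other.

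The receptors raised by NCD and by bacon were Olfr1384 and Olfr464 in both cases. Olfr1384 (ENSMUSG00000044170, chr11:49506724-49517345, plus strand) had log2 pulldown/input ratios of 0.03, 0.07, -0.06, 0.12 and -0.58 without odour. Under NCD odour the 6 pools ranged from 0.79 to 1.29 with a median of 1.12, and all lay above every pool without odour. Under bacon odour the pools gave 0.49, 1.43, 1.04, 1.13 and 1.42, again all above. Under HFD lard odour they gave 0.20, -0.22, 0.14, 0.10 and 0.24, which overlapped the pools without odour.

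The fitted ratio of Olfr1384 rose by 1.19 under NCD (SE 0.16, adjusted p = 3.65e-05, edgeR) and by 1.20 under bacon (SE 0.17, adjusted p = 4.7e-05), changes of 2.28- and 2.30-fold. Under HFD lard the change was 0.18 (SE 0.17, adjusted p = 0.515), and 2 SE to either side span -0.15 to 0.51. The level in the pulldown was 6.73 ± 0.911 CPM without odour (SD, n = 5), 17.7 ± 2.47 under NCD (n = 6), 15.7 ± 3.75 under bacon (n = 5) and 8.43 ± 0.675 under HFD lard (n = 5). The input stayed between group means of 7.16 and 8.22 CPM, so the difference was in the pulldown. The calls under NCD and bacon were kept when each pool was left out in turn, with adjusted p up to 0.000195 and 0.000304, and also in a fit that took ribosomal RNA content as a covariate (1.40 and 1.41). In a fit on the bacon and no-odour libraries alone the bacon change was 1.22 with an adjusted p of 0.00303.

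Compared directly, the Olfr1384 ratio was lower under HFD lard than under NCD by a log2 difference of -1.01 (SE 0.15, adjusted p = 0.00158, edgeR) and lower than under bacon by -1.02 (SE 0.16, adjusted p = 0.00232). Neither passed the threshold of 0.001, and each stayed short of it in 19 of 21 fits with 1 pool left out. Without HFD lard replicate 2 the adjusted p rose to 0.012 and 0.014. Both passed when either the pool without odour replicate 6 or bacon replicate 1 was left out (adjusted p from 3.84e-05). The pool without odour belongs to neither comparison and bacon replicate 1 only to that with bacon, but all libraries share 1 estimate of the spread. No HFD lard pool reached the lowest bacon or NCD pool. Bacon and NCD differed by 0.01, with 2 SE spanning -0.29 to 0.31. None of the 9 other tested members of the subfamily was called under any odour: their changes were at most 0.41 under NCD (lowest adjusted p = 0.101), 0.71 under bacon (0.139) and 0.76 under HFD lard (0.128). Whether Olfr1384 differs in its change from these relatives was not tested.

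Olfr464 (ENSMUSG00000060787, chr11:87913268-87920967, minus strand) was already enriched without odour, with log2 ratios of 1.46, 0.71, 0.77, 0.97 and 0.88. Its 6 NCD pools ranged from 1.67 to 1.95 with a median of 1.74, all above the highest pool without odour. The bacon pools gave 1.25, 2.07, 1.91, 1.84 and 1.81, of which bacon replicate 1 overlapped the pools without odour. The HFD lard pools gave 1.50, 1.60, 1.91, 1.67 and 1.79, again all above. The fitted ratio rose by 0.81 under NCD (SE 0.14, adjusted p = 0.000826), by 0.83 under bacon (SE 0.15, adjusted p = 0.000339) and by 0.74 under HFD lard (SE 0.15, adjusted p = 0.00164), the last short of the threshold. These are changes of 1.76-, 1.78- and 1.67-fold. The pulldown level was 9.87 ± 1.33 CPM without odour (SD, n = 5) and 17.1 ± 1.08 (n = 6), 16.6 ± 3.88 (n = 5) and 17.1 ± 0.995 (n = 5) under NCD, bacon and HFD lard, and the input means lay between 4.68 and 5.27 CPM.

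The NCD call of Olfr464 sits close to the threshold: leaving out 1 pool moved its adjusted p between 0.000116 and 0.00435, and the call was kept in 6 of 21 such fits, those without the no-odour replicate 1, bacon replicate 1 or 2, or HFD lard replicate 1, 2 or 6. The bacon call was kept in 16 of 21 and lost without the no-odour replicate 3 or bacon replicate 2, 3, 4 or 5. The HFD lard change passed without the no-odour replicate 1 or bacon replicate 1. When ribosomal RNA content was a covariate, the changes were 0.87 under NCD (adjusted p = 0.038) and 0.89 under bacon (0.0157), so both calls were lost, as was the bacon call in a fit on the bacon and no-odour libraries alone (adjusted p = 0.00741). The odours did not differ in the Olfr464 ratio beyond the error, with 2 SE spanning -0.34 to 0.20 for HFD lard against NCD and -0.38 to 0.20 against bacon. Olfr463, its neighbour, changed by 0.41, 0.34 and 0.36 under NCD, bacon and HFD lard (adjusted p = 0.178, 0.253 and 0.261) and was not called.

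**Figure D4:**
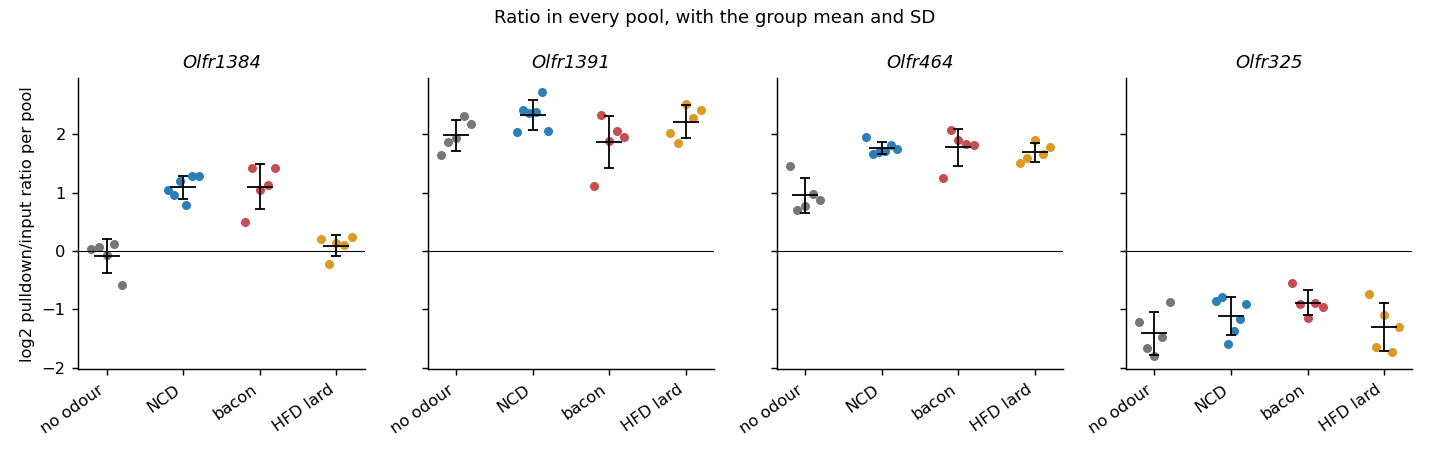
Log2 pulldown/input ratio in every pool of Olfr1384, its enriched relative Olfr1391, Olfr464 and the depleted Olfr325; points are pools (5 without odour, 6 NCD, 5 bacon, 5 HFD lard) and black marks are the mean and SD. The Olfr1384 pools under NCD and bacon lie between 0.49 and 1.43, above the HFD lard and no-odour pools, which reach at most 0.24.

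Other members had changes that did not pass the threshold of 0.001 but had an adjusted p under 0.05. Olfr324 had log2 ratios of -0.48, -0.53, -0.14, 0.40 and -0.34 without odour and 0.49, 1.24, 1.15, 1.26 and 0.66 under HFD lard, so those groups did not overlap. Its change was 1.22 under HFD lard (SE 0.28, adjusted p = 0.00487), against 0.23 under NCD and 0.11 under bacon (adjusted p = 0.643 and 0.835). HFD lard and bacon differed by 1.11 for Olfr324 (SE 0.28, adjusted p = 0.16), which did not pass. Olfr329-ps of the depleted set had ratios of -0.33, -0.50, -0.56, -0.50 and -0.20 without odour and 0.09, -0.05, -0.04, -0.12 and 0.19 under bacon. Its change of 0.43 under bacon (SE 0.10, adjusted p = 0.00349) did not pass, and no bacon pool overlapped the pools without odour. With DESeq2 on pulldown divided by input, Olfr329-ps under bacon (0.44, adjusted p = 0.000477) and Olfr324 under HFD lard (1.22, adjusted p = 0.000333) did pass. Olfr398 changed by 0.43 under NCD (adjusted p = 0.0305) and Olfr56 by 0.48, 0.43 and 0.52 under NCD, bacon and HFD lard (adjusted p = 0.0319, 0.0469 and 0.023). Olfr30 changed by 0.41 under HFD lard (adjusted p = 0.0382) and by -0.12 under NCD (0.611), a difference of 0.53 (SE 0.13, adjusted p = 0.226). Olfr412 had the largest fitted changes of the tested members under bacon (1.94) and NCD (1.29), with 0.64 under HFD lard. Only the bacon change had an adjusted p under 0.05 (edgeR), and 4 of 5 bacon pools lay above every pool without odour. Its input was also lower under bacon at an adjusted p under 0.05, and it had 655 counts over all libraries. Olfr406 reached an adjusted p under 0.05 under HFD lard, with 4 of 5 pools above every pool without odour.

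On the lower side no member was called. Olfr332 had log2 ratios of 0.95, 0.96, 1.14, 0.98 and 0.45 without odour, and its changes were -0.31, -0.44 and -0.50 under NCD, bacon and HFD lard (adjusted p = 0.114, 0.0197 and 0.0142). Its pulldown level hardly moved, from 16.3 ± 1.96 CPM without odour (SD, n = 5) to 17.8, 16.6 and 15.5 CPM, while its input level went from 8.78 ± 1.73 CPM to 11.8, 12.1 and 11.7 CPM. Olfr411 changed by -1.03 under NCD and -1.21 under HFD lard (adjusted p = 0.139 and 0.0838), and Olfr333-ps1 by -0.76 under bacon (0.157). These 2 genes had medians of 22.6 and 21 counts in an input.

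**Figure D5:**
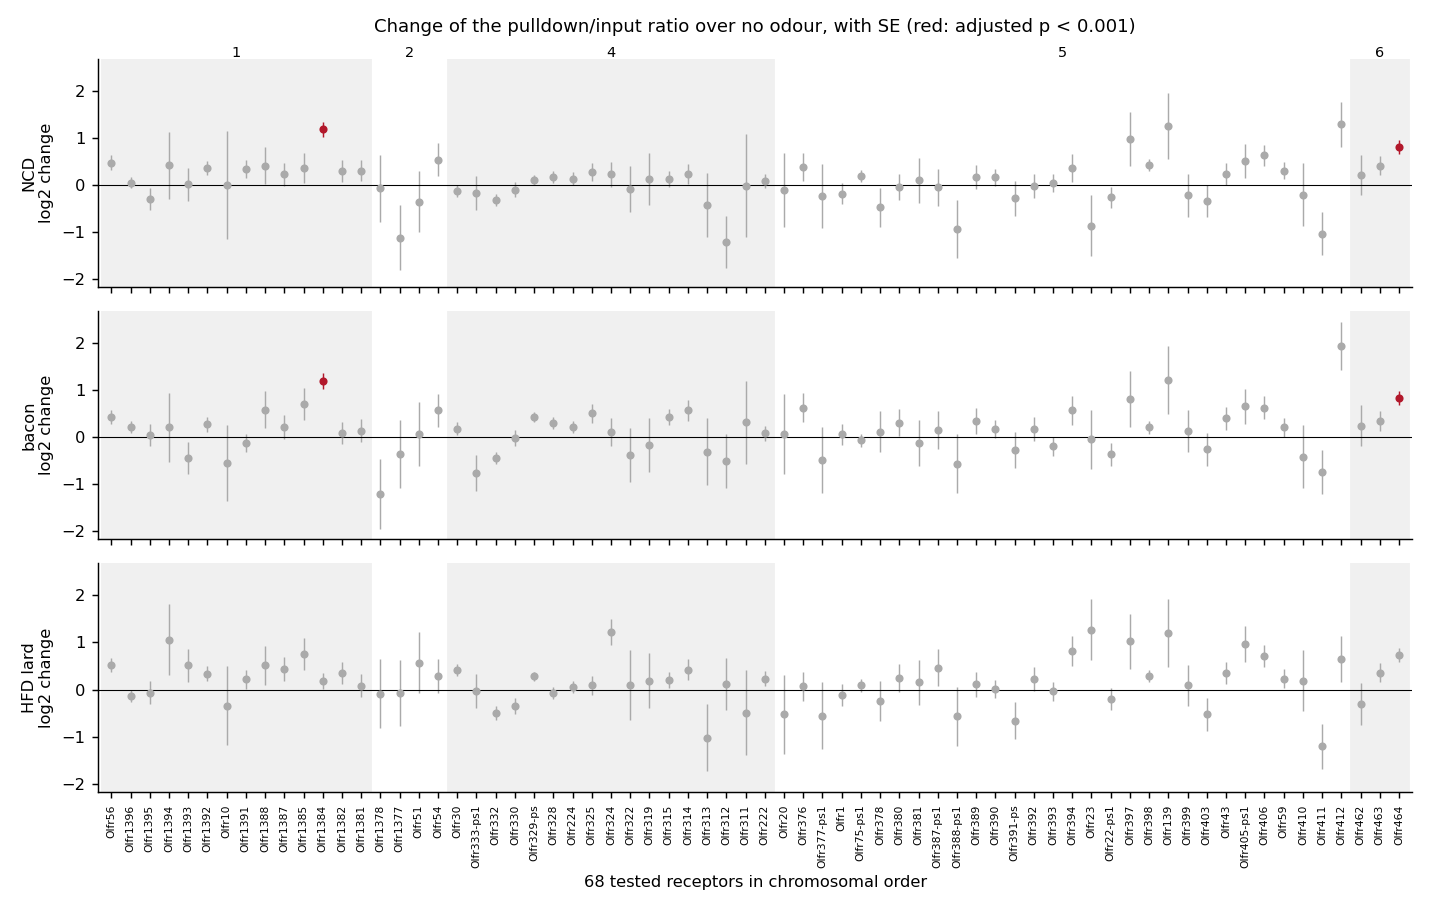
Change of the fitted log2 pulldown/input ratio over no odour, with SE, for the 68 tested receptors in chromosomal order under NCD, bacon and HFD lard; red marks adjusted p under 0.001. Olfr1384 and Olfr464 are marked under NCD and bacon, at 1.19 and 0.81 and at 1.20 and 0.83, and no receptor is marked under HFD lard.

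Between odours, 0 members passed in any of the 3 direct comparisons (edgeR, adjusted p under 0.001), against 0.00945% of all genes for bacon and NCD, 0.0236% for HFD lard and NCD and 0.0378% for HFD lard and bacon. At an unadjusted p under 0.05 the members higher and lower were 2 and 1, 4 and 1, and 2 and 5, against 3.69 and 3.55%, 2.38 and 2.24%, and 3.48 and 4.52% of all genes. In percent of the members these were 2.94 and 1.47, 5.88 and 1.47, and 2.94 and 7.35. DESeq2 with the same design called 0, 1 and 1. Beside Olfr1384 and those already given, the smallest p-values belonged to Olfr1391 (-0.46) and Olfr75-ps1 (-0.26) for bacon minus NCD, and to Olfr328 (-0.38) and Olfr1393 (0.95) for HFD lard minus bacon, with adjusted p of 0.655, 0.70, 0.407 and 0.477.

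In the inputs alone, 0 members differed between an odour and no odour, against 0.968% of all genes for NCD, 13.1% for bacon and 0.935% for HFD lard. At an unadjusted p under 0.05 there were 4 members higher and 1 lower for NCD, 10 and 5 for bacon and 12 and 2 for HFD lard. The shares of all genes at that level were 17.0 and 17.7%, 22.8 and 23.3%, and 17.1 and 16.9%, so that only the 12 members higher under HFD lard (17.6%) were not below them. DESeq2 called 1, 1 and 0 members. Olfr332 had the change nearest to the threshold, with 0.42, 0.45 and 0.42 in the 3 odours (adjusted p = 0.00636, 0.00166 and 0.00905, edgeR).

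The partners of the receptors were described by counts. Of all 21168 genes, 19.8% were higher and 16.0% lower in the pulldown without odour at the same threshold. Under NCD 0.359% of all genes rose and 0.165% fell, under bacon 2.47 and 1.32%, and under HFD lard 0.699 and 0.520%. Of 15 odour transduction genes, the G protein, cyclase and channel subunits among them, 9 were higher and 1 lower in the pulldown without odour (median log2 ratio 0.34), and 0, 2 and 0 rose under NCD, bacon and HFD lard. Of 14 genes of receptor trafficking and choice, 8 were higher and 2 lower at rest (median 0.26), and none passed under an odour. Of 17 activity-induced genes, 11 were higher and 0 lower at rest (median 0.93), 1 rose and 1 fell under bacon, and 1 fell under HFD lard.

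Cell type markers were counted in the same way, against the same shares of all genes (19.8% higher and 16.0% lower at rest). At rest 5 of 7 markers of mature sensory neurons and 3 of 5 of immature ones were higher in the pulldown, as were 2 of 4 of globose basal cells, 5 of 5 of macrophages, 5 of 5 of erythroid cells, 3 of 4 tested of neutrophils and 1 of 4 of multiciliated cells. Lower were 4 of 5 markers of supporting cells, 3 of 4 of horizontal basal cells and 3 of 4 of ensheathing glia, while Bowman gland had 1 higher and 1 lower. Under bacon 2 of 7 mature neuron markers rose, Omp by 0.64 (adjusted p = 0.000189, edgeR) and Gng13 by 1.33 (adjusted p = 0.000614), and none rose under NCD or HFD lard. Omp and Gng13 are also the 2 odour transduction genes that rose under bacon. All mature neuron markers but Stoml3 are in that list too, so the counts of the lists are not separate. Of 4 Bowman gland markers only Bpifb9b rose, by 1.87, 1.85 and 1.93 under NCD, bacon and HFD lard (adjusted p = 1.64e-10, 5.93e-10 and 2.03e-10, edgeR). The others were not called: Sox9 changed by -0.35, -0.39 and -0.33, Muc5b by -0.13, -0.71 and -0.17, and Aqp5 by 0.19, 0.18 and 0.34. The medians of the 4 were 0.03, -0.11 and 0.08. Glial markers rose in 1 of 4 cases under bacon and 2 of 4 under HFD lard, and 1 of 4 globose basal cell markers fell under bacon. The summed level of the 7 mature neuron markers was 13934 to 20102 CPM in the pulldowns without odour and 19367 to 23470, 18372 to 24024 and 18115 to 22592 CPM under NCD, bacon and HFD lard, and no marker was at 0 in all libraries. These sums were scaled to all counts of a library, ribosomal RNA included, and not by TMM factors. Ribosomal RNA took a mean of 19.1% of the counts in the pulldowns without odour and 11.5, 11.7 and 10.5% under NCD, bacon and HFD lard. Its part in the sums was not tested. The part of cell composition in the receptor ratios was not tested.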

How the data were processed

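RNA-seq of pulldown and input libraries was compared in 21 pools of main olfactory epithelium. The authors amplified RNA with a kit that does not mark strand, ran the nf-core rnaseq pipeline with Salmon on GRCm38 (annotation release not given in the sources used here) and deposited estimated counts per gene, without normalization. Of these expected counts 30.9% were not whole, since reads matching several genes are split between them. Every column was mapped to a sample, with 25392812 to 36738330 counts per pulldown and 24839555 to 36781553 per input, and 44118 of 44674 identifiers had a name in GENCODE M21, which gave symbols, positions, exons and coding sequences.

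Counts were rounded and filtered with filterByExpr (minimum count 10, 8 groups), which left 21168 genes. Library sizes were scaled by TMM, and edgeR 4.0.16 (with limma 3.58.1 under R 4.3.3) fitted the counts by robust quasi-likelihood with 1 term per pool and 1 pulldown term per odour, while inputs were fitted alone on the same genes. P-values were two-sided and adjusted over all genes (Benjamini-Hochberg), with a threshold of 0.001 as in the study. The labels do not say whether pools came from separate cohorts, so p-values measure the spread between pools. CPM used TMM factors, except for the summed marker levels, which were scaled to all counts of a library. Ratios per pool used a prior count of 2. The fit was tested on simulated data for NCD over no odour (21168 genes), where 72 of 100 genes changed 2-fold and 93 of 100 changed 4-fold were recovered with 0 wrong calls. The changed genes were drawn from those with a mean above 1 CPM, and no other gene differed between odours. Recovery for less abundant members, such as Olfr10, was not tested.

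Pulldown and input of a pool come from the same animals, which pairs them. On the counts, their deviations from group means correlated with a median r of 0.0142 over 21 pools, against -0.00416 between different pools of a group. No 2 libraries of a group differed by less than sampling noise.

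Members, gene lists and tests were chosen with earlier results of these data known. Members were named with values where they passed the threshold under an odour, had the smallest p-values of a comparison (5 in each direction at rest, 3 higher and 2 lower under an odour, 2 in each direction between odours), or had the 3 highest or lowest levels per length. Further names, such as Olfr463 and Olfr328, were picked with their values in view. Alternatives were DESeq2 1.42.0 or its size factors, DESeq2 on pulldown divided by input, no filter, an adjusted p of 0.05, no term for the pool, the replicate number as a term, the compared groups alone, the ribosomal RNA share of the pulldown as a covariate, a prior count of 0.5, and each pool left out in turn. The ribosomal RNA share of the inputs was not adjusted for.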

Additional observations from a re-analysis of the deposited data

Results flagged for a closer look

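Among 24 named receptors in 4 conditions, 6 of 96 groups held a pool far from the others in its log2 pulldown/input ratio, where chance flags about 1 in 20 groups. In bacon replicate 1 the ratio was 1.11 for Olfr1382 and 0.99 for Olfr398, against medians of 1.78 and 1.76 in the other bacon pools. In the pool without odour replicate 6 it was -0.58 for Olfr1384, against 0.05 in the others, and 0.45 for Olfr332, against 0.97. NCD replicate 4 had -0.06 for Olfr329-ps, against -0.36, and HFD lard replicate 6 had 1.36 for Olfr333-ps1, against 0.51. Bacon replicate 1 also had the narrowest ratios over all genes (SD 0.60), followed by the pool without odour replicate 6 (SD 0.74). Without bacon replicate 1 the change of Olfr1384 under bacon was 1.35, and without the pool of replicate 6 its change under NCD was 1.06, and both were called.

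The change of Olfr1384 differed between odours: the log2 ratio under HFD lard minus NCD was -1.01 and under HFD lard minus bacon -1.02, at an adjusted p under 0.05 in edgeR's quasi-likelihood test of the difference. These comparisons were also the 2 in which members differed between odours at that level.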

How the results depend on the processing

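The comparisons of the 24 named receptors under the alternatives gave 1073 values. None of these changed direction, 1020 kept their side of the threshold, 28 lost it and 25 gained it. The values are not independent, since the fits share libraries, and many belong to comparisons that were not called in the main fit. The count of members differing at rest (25) was 19 in the no-odour libraries alone (where Olfr329-ps and Olfr314, with adjusted p of 0.00173 and 0.00262, were among those lost), 35 at an adjusted p of 0.05, 25 under every other alternative run, and 23 to 25 with 1 pool left out. With NCD, 2 members became 1 without the replicate block (no term for the pool), 1 with the replicate number as the block, 1 with the ribosomal RNA covariate and 4 at an adjusted p of 0.05. The replicate numbers do not pair pools across odours (r from -0.214 to 0.112 for the same number), and Olfr464 was the receptor lost, with adjusted p of 0.00104 and 0.00133 in those fits (edgeR), while the counts of the other comparisons were kept. With bacon, 2 became 0 in a fit on the compared groups alone, 1 with the covariate, 3 with DESeq2 on pulldown divided by input (Olfr329-ps added) and 6 at 0.05. With HFD lard, 0 became 1 without the filter, 1 with DESeq2, 2 with DESeq2 on pulldown divided by input and 6 at 0.05. HFD lard against NCD went from 0 to 1 without the filter, with DESeq2, in the compared groups alone and at 0.05, and HFD lard against bacon from 0 to 1 without the filter, with DESeq2 and at 0.05. In the inputs, 0 became 1 with DESeq2 for NCD and for bacon, and 3, 6 and 4 at 0.05 for NCD, bacon and HFD lard. Leaving out 1 pool gave 1 to 2 members for NCD and for bacon, 0 to 1 for HFD lard, for HFD lard against NCD or bacon and for each input comparison, and 0 to 0 for bacon against NCD. The cause of these changes was not tested. The 26 untested members had too few counts for the filter, and why their counts were low was not tested. Tested members with few counts, such as Olfr10, have a wide SE.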
